A study of Saccharomyces cerevisiae with 11 samples.

Results

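RNA of Aged mother cells was compared with RNA of Young cells of budding yeast, gene by gene, to describe which pathways stood higher or lower at the greatest replicative age in the series. The comparison used 4 of the 11 libraries of the series, 2 RNA-Seq libraries of Aged cells and 2 of Young cells. The Young samples are described as biological replicates, the Aged ones only by replicate number, so p-values measure the spread between these libraries. Each library was deposited as a count for each of 6668 coding sequences, and the 5897 with enough counts were tested. Genes were then read in lists by pathway, with most room given to vitamins, NAD, metals and the cell wall.

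The study followed the strain BY4743, a MATa/alpha diploid made homozygous for his3Δ1, leu2Δ0 and ura3Δ0 and heterozygous for lys2Δ0 and met15Δ0. The strain is called wild type in the series, and this listed genotype applies to every group. Cells of every group were grown in synthetic defined medium with casamino acids, glucose and D-mannose at 25 °C. Surface proteins of the starting cells were tagged with biotin, so that the label stayed on the mothers and was not passed to the buds. Aged cells were mothers that had grown for 13 h in batch culture, had been caught on streptavidin beads and had then been held by magnets for 24 h in a flow vessel (the MAD system). Middle cells were mothers caught after the same 13 h with no time in the vessel. Young cells were the unlabelled cells that ran through the magnet after the batch culture, so they were mostly recent daughters and not the mothers' own earlier state. Aged and Young cells therefore differed in age, in the beads and in the time spent in the vessel, and these 3 cannot be told apart here.

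Replicative age counts the buds a mother has made. Yeast makes thiamine and NAD itself or imports their precursors. It brings in iron, copper and zinc through low-affinity transporters and through high-affinity ones that are switched on when the metal is scarce. Its wall is a mesh of glucan, chitin and mannoproteins that is remodelled at each bud, and glucose holds down the genes for respiration and for growth on non-fermentable carbon.

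Total counts were 536622 and 1430018 in the Aged libraries, and 955721 and 2585717 in the Young libraries. A gene at the median had 29 and 93 counts in Aged cells against 48 and 147 in Young cells, and 3 counts came to 5.59 and 2.10 CPM (counts scaled to 1e6 per library) in Aged cells against 3.14 and 1.16 CPM in Young cells. Levels are CPM of each library's total after scaling by the trimmed mean of M values (TMM). The counts within each group differed by more than counting error, with a chi-square per degree of freedom of 13.3 between the Aged libraries and 29 between the Young libraries. Pearson's r of log2 CPM across genes, which are not independent replicates, was 0.919 within each group and 0.783 to 0.826 between Aged and Young libraries. Intervals and floors from counts cover counting error only.

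All adjusted p-values come from edgeR's two-sided quasi-likelihood test with Benjamini-Hochberg adjustment over every gene tested, and a gene was called higher or lower where that value was under 0.05. RNA of 473 genes (8.02%) was higher in Aged cells and RNA of 291 genes (4.93%) was lower. Before adjustment, 1645 genes had a p under 0.05. Both Aged libraries lay above both Young libraries for 29.5% of the tested genes and below both for 28.9%, and the median log2 fold change (Aged over Young) of all tested genes was -0.016. The calls rested on the second Young library, which was the deepest. Without it, when the spread came from the Aged pair alone, no gene passed in either direction, the smallest adjusted p was 0.0809 and 1472 genes kept an unadjusted p under 0.05. Without the first Young library 234 genes were higher and 87 lower, and without the second Aged library 398 were higher and 188 lower. Where a list below is given 0 calls in a direction between Aged and Young cells, edgeR's unadjusted p was under 0.05 for at most 1 of its members in that direction, and DESeq2, a second count test, called 0. In bulk RNA, fewer cells of a type and less RNA per cell cannot be told apart.

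The change also ran with gene length. The median log2 fold change was 0.323 over genes with coding sequences of 16 to 215 codons, the shortest group of 4 of about equal size, and -0.234 over those of 619 to 4901 codons, the longest. With the cytosolic and mitochondrial ribosomal proteins, complexes III and IV, the ATP synthase and the TCA cycle left out, these medians were 0.203 and -0.237. Several lists described here hold mostly short genes, with a median of 134 codons for cytosolic ribosomal proteins, 97 for complex IV and 123 for histones. The part of length in their values was not tested.

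**Figure D1:**
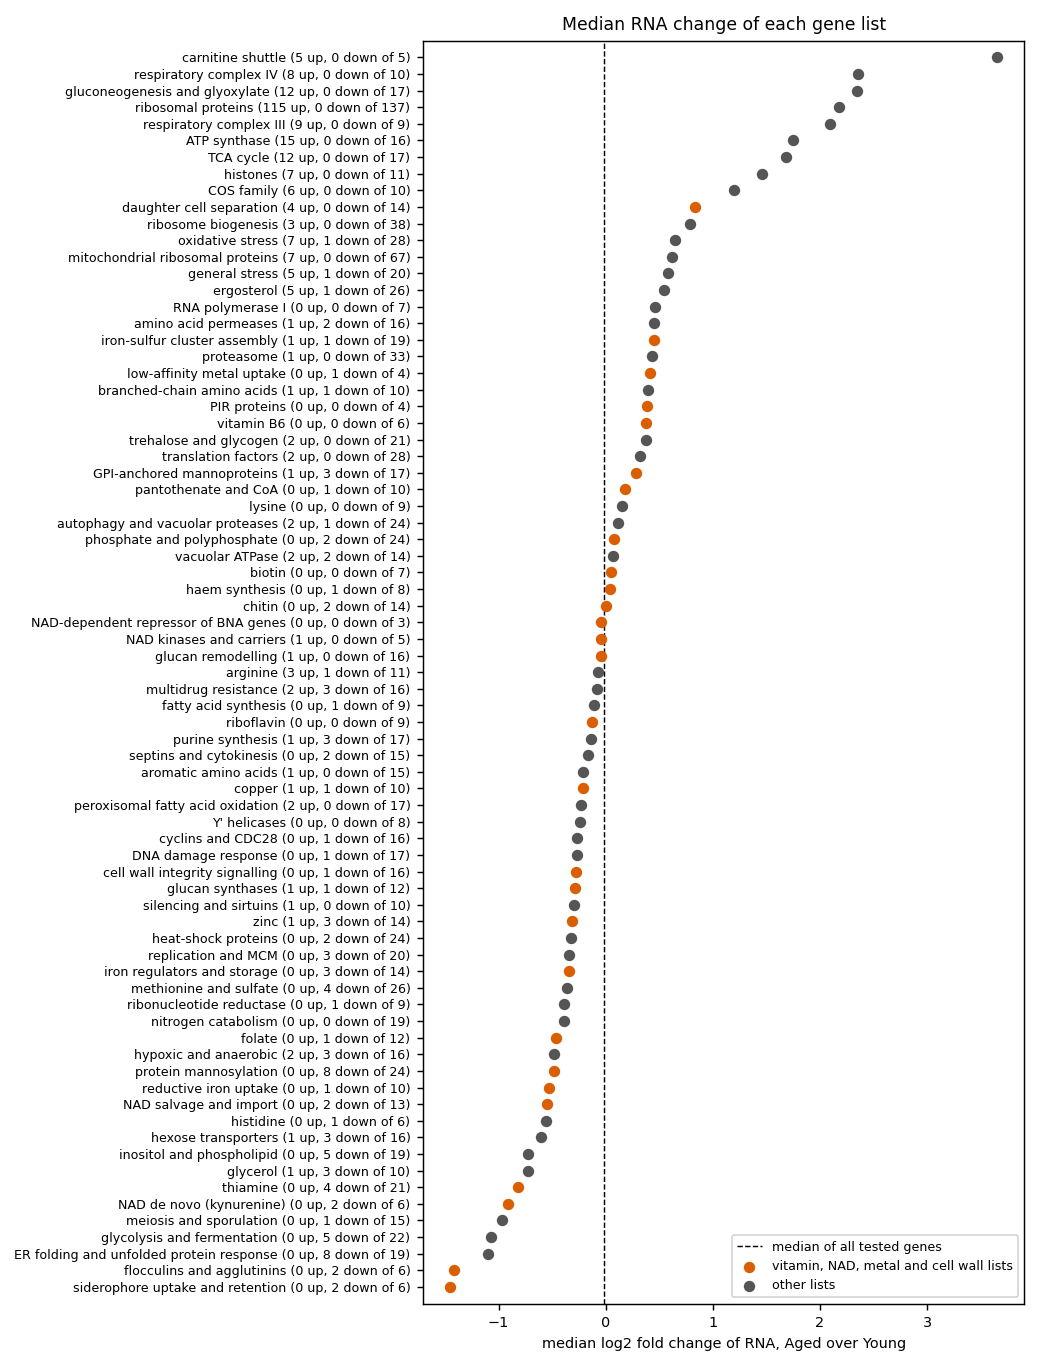
Median log2 fold change of RNA (Aged over Young, x axis) of the tested members of each gene list (one row per list, with the number called up and down of the number tested). Orange points are the vitamin, NAD, metal and cell wall lists and dark points the others, and the dashed line is the median of all tested genes. The lists run from the carnitine shuttle at 3.653 to siderophore uptake at -1.45.

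Marker genes were read as a check of the labels. Genes that the genotype lists as deleted still had reads, with 43 and 185 counts of URA3 in Aged cells against 70 and 412 in Young cells, and 22 and 69 counts of LEU2 in Aged cells against 80 and 142 in Young cells. URA3 stood above the median gene in each of these libraries, and LEU2 only in the first Young library. Ribosome footprint libraries held them too, with 87 counts of URA3 in Aged cells against 20 and 73 in Young cells. LEU2 had 70 footprint counts in Aged cells against 50 and 30 in Young cells. Where these reads come from was not tested. The 10 daughter-cell markers, genes of the programme that newborn cells run to separate from the mother, summed to 1710.2 and 1644.9 CPM in Aged cells and to 1186.9 and 543.1 CPM in Young cells, although the Young fraction was the one enriched in daughters. Of these, 3 were called higher. Haploid markers were low in every library, summing to 47.5 and 77.0 CPM in Aged cells against 181.5 and 138.6 CPM in Young cells, and the alpha-factor gene MF(ALPHA)1 had at most 3 counts in any of the 4. Sporulation markers summed to 70.3 and 93.5 CPM in Aged cells and to 197.4 and 130.6 CPM in Young cells.

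Vitamin genes either fell or were not called. Of 65 tested genes of vitamin synthesis and uptake, 6 were lower in Aged cells and 0 higher, with a median log2 fold change of -0.128. Over all tested genes 4.93% were lower and 8.02% higher, and the counts of each list below are to be read beside these shares. The thiamine list held 4 of the 6, with 4 lower of 21 tested and a median of -0.823. Without the first Aged library 3 of the 6 calls were kept, and likewise without the second Aged or the first Young library.

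THI20 (chrXV:224420-226075, minus strand, R64) makes the pyrimidine part of thiamine and fell the furthest of all genes with at least 3 counts in each library. It had 62.7 and 45.5 CPM in Aged cells against 1346 and 891 CPM in Young cells (log2 fold change -4.39, SE 0.43, edgeR adjusted p = 0.000507). Its relative THI21, which encodes a similar kinase, had 43.7 and 24.6 CPM in Aged cells against 107 and 82.1 CPM in Young cells (-1.52, SE 0.41, edgeR adjusted p = 0.0346). Both genes were low in both Aged libraries, and the groups did not overlap. THI4, which makes the thiazole part, had 17.1 and 3.16 CPM in Aged cells against 44.3 and 105 CPM in Young cells (-3.27, SE 0.71, edgeR adjusted p = 0.0132), the Aged values resting on 9 and 5 counts. THI6, which joins the thiazole and pyrimidine parts, had 91.2 and 102 CPM in Aged cells against 191 and 219 CPM in Young cells (-1.08, SE 0.31, edgeR adjusted p = 0.0396). THI5, THI11, THI12 and THI13, the copies that make the pyrimidine precursor, are at least 95% identical to each other, so reads may be split among them, and none was called.

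Calls in the other vitamin pathways were single genes. FMS1, whose polyamine oxidase feeds beta-alanine to pantothenate, had 70.3 and 77.0 CPM in Aged cells against 209 and 208 CPM in Young cells (log2 fold change -1.49, SE 0.31, edgeR adjusted p = 0.0113). ADE3, the cytosolic enzyme that interconverts one-carbon folates, had 450 and 429 CPM in Aged cells against 1557 and 1346 CPM in Young cells (-1.72, SE 0.37, edgeR adjusted p = 0.0128). In both genes the libraries of a group lay close together and the groups were well apart. The biotin (7 tested), vitamin B6 (6 tested) and riboflavin (9 tested) lists held no call, with medians of 0.053, 0.376 and -0.128. In the biotin list, BIO2, the biotin synthase, had 1186 and 606 CPM in Aged cells against 601 and 483 CPM in Young cells (0.72, SE 0.41, edgeR adjusted p = 0.277), and BIO3, an earlier step, had 447 and 237 CPM in Aged cells against 681 and 626 CPM in Young cells (-0.95, SE 0.38, edgeR adjusted p = 0.129).

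Most calls among NAD genes were lower in Aged cells. Of 27 tested, 4 were lower in Aged cells and 1 was higher, and the median log2 fold change was -0.371. The de novo pathway, which builds NAD from tryptophan through kynurenine, had 2 of 6 lower and a median of -0.914, and salvage and import had 2 of 13 lower and a median of -0.552. Both Aged libraries lay below both Young libraries in 4 of the 6 and in 6 of the 13, against 28.9% of all tested genes. Without the first Aged, the second Aged or the first Young library, 3, 3 and 2 of the 5 calls were kept.

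BNA2 (chrX:578860-580221, plus strand, R64) encodes the tryptophan dioxygenase of the first de novo step. It had 28.5 and 27.2 CPM in Aged cells against 266 and 358 CPM in Young cells (log2 fold change -3.49, SE 0.35, edgeR adjusted p = 0.000528). BNA5, the kynureninase, had 85.5 and 92.8 CPM in Aged cells against 187 and 329 CPM in Young cells (-1.54, SE 0.35, edgeR adjusted p = 0.016). The steps were not alike, since BNA4, the monooxygenase between them, had 124 and 125 CPM in Aged cells against 120 and 146 CPM in Young cells (-0.10, SE 0.31, edgeR adjusted p = 0.857). Below both Young libraries but without a call were BNA1 (-1.03, SE 0.39, edgeR adjusted p = 0.109) and BNA6 (-0.80, SE 0.32, edgeR adjusted p = 0.125). In salvage, NRK1, the nicotinamide riboside kinase, had 5.70 and 8.21 CPM in Aged cells against 37.4 and 24.2 CPM in Young cells (-2.02, SE 0.55, edgeR adjusted p = 0.0359). URH1, a hydrolase of the same nucleoside, had 22.8 and 21.5 CPM in Aged cells against 79.4 and 86.9 CPM in Young cells (-1.92, SE 0.39, edgeR adjusted p = 0.0109). Both were low in both Aged libraries, and the Aged level of NRK1 was near the floor of the smaller library. The call in the other direction was POS5, the mitochondrial NADH kinase, with 58.9 and 60.6 CPM in Aged cells against 21.6 and 22.4 CPM in Young cells (1.44, SE 0.40, edgeR adjusted p = 0.0379). PNC1, the nicotinamidase, had 1195 and 932 CPM in Aged cells against 1080 and 1663 CPM in Young cells (-0.37) and was not called. SIR2, an NAD-dependent deacetylase, was not called either (0.50, SE 0.50, edgeR adjusted p = 0.562).

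Metal genes were lower more often than higher. Of 109 tested, 15 were lower in Aged cells and 3 higher, with a median log2 fold change of -0.09. Of the 18 calls, 14 were kept without either Aged library and 11 without the first Young library. The iron genes came in 4 lists, with 1 lower of 10 in reductive uptake, 1 of 4 in low-affinity uptake, 2 of 6 in siderophore uptake and retention, and 3 of 14 among regulators and storage. Their medians were -0.534, 0.411, -1.45 and -0.347.

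Iron genes are switched on in iron shortage by Aft1 and Aft2, which bind the core TGCACCC. The core was searched on both strands of 300 bases per gene, the 250 before the start codon and the first 50 of the coding sequence, read from the RefSeq R64 genome, and 78 of 6007 such windows (1.3%) held it. Among the iron lists it was in 5 of 7 siderophore genes, 4 of 10 reductive uptake genes, 2 of 14 regulators and 1 of 4 low-affinity transporters. Of these 12 genes, 11 were tested and 3 called, all lower. The sites below show 1 match in each of the called genes, with the core in capitals and 10 bases on either side. TIS11 holds another match further upstream, at 249 bases. A match is a description of the letters and not of binding.
FET4 site, chrXIII:914735-914761, minus strand, starting 213 bases upstream of the start codon: ccttcttaatTGCACCCattagtttag
SIT1 site, chrV:27459-27485, minus strand, starting 188 bases upstream: cgaaccagatTGCACCCtcaaatgtgt
TIS11 site, chrXII:416815-416841, plus strand, starting 173 bases upstream: gctggcacaaTGCACCCaactgcatgt

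FET4 encodes the low-affinity transporter for iron, copper and zinc. It had 43.7 and 59.4 CPM in Aged cells against 490 and 520 CPM in Young cells (log2 fold change -3.26, SE 0.34, edgeR adjusted p = 0.000625). FRE4, a ferric reductase, had 13.3 and 28.4 CPM in Aged cells against 112 and 287 CPM in Young cells (-3.16, SE 0.51, edgeR adjusted p = 0.00408). FET3 and FTR1, the oxidase and permease that carry high-affinity iron uptake, were not called. FET3 had 253 and 233 CPM in Aged cells against 196 and 525 CPM in Young cells (-0.58, SE 0.42, edgeR adjusted p = 0.408), and the groups overlapped. FTR1 had 433 and 319 CPM in Aged cells against 256 and 537 CPM in Young cells (-0.09, SE 0.39, edgeR adjusted p = 0.905). Among siderophore transporters, ARN2 had 41.8 and 48.6 CPM in Aged cells against 140 and 129 CPM in Young cells (-1.55, SE 0.34, edgeR adjusted p = 0.0134). SIT1 had 116 and 122 CPM in Aged cells against 186 and 415 CPM in Young cells (-1.35, SE 0.39, edgeR adjusted p = 0.0432).

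TIS11 and CTH1 encode RNA-binding proteins that speed the decay of messages for iron-using proteins when iron is short. TIS11 had 39.9 and 12.6 CPM in Aged cells against 112 and 244 CPM in Young cells (log2 fold change -2.95, SE 0.56, edgeR adjusted p = 0.00756). CTH1 had 13.3 and 42.9 CPM in Aged cells against 116 and 109 CPM in Young cells (-1.87, SE 0.46, edgeR adjusted p = 0.0226). MRS4, which brings iron into mitochondria, had 169 and 77.0 CPM in Aged cells against 229 and 409 CPM in Young cells (-1.42, SE 0.42, edgeR adjusted p = 0.0488). All 3 were low in both Aged libraries, and MRS4 stood closest to the threshold.

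Among the genes of iron-sulfur clusters and haem, YFH1, the yeast frataxin, had 62.7 and 71.4 CPM in Aged cells against 18.2 and 18.3 CPM in Young cells (log2 fold change 1.88, SE 0.41, edgeR adjusted p = 0.0131). ISU2, a scaffold for cluster assembly, had 20.9 and 15.2 CPM in Aged cells against 48.8 and 55.0 CPM in Young cells (-1.58, SE 0.44, edgeR adjusted p = 0.0377). These were the 2 calls among 19 tested cluster genes, one in each direction, and the median of the 19 was 0.451. Both Aged libraries lay above both Young libraries in 11 of the 19 and below both in 4. The shares over all tested genes were 29.5% and 28.9%. HEM13, an oxygen-requiring step of haem synthesis, had 24.7 and 22.1 CPM in Aged cells against 203 and 106 CPM in Young cells (-2.72, SE 0.43, edgeR adjusted p = 0.00359) and was the single call among 8 haem genes.

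Zinc and copper genes moved in both directions. Of 14 zinc genes tested, 3 were lower and 1 was higher. ZRT1, the high-affinity zinc transporter, had 39.9 and 92.8 CPM in Aged cells against 230 and 609 CPM in Young cells (log2 fold change -2.60, SE 0.50, edgeR adjusted p = 0.00833). ZRT2, the low-affinity transporter, had 171 and 211 CPM in Aged cells against 57.9 and 40.7 CPM in Young cells (1.98, SE 0.34, edgeR adjusted p = 0.00526). The 2 transporters thus moved in opposite directions, each without overlap between the groups. ADH4, an alcohol dehydrogenase that is induced when zinc is low, had 64.6 and 42.3 CPM in Aged cells against 289 and 472 CPM in Young cells (-2.88, SE 0.38, edgeR adjusted p = 0.00173). ZPS1, a cell-surface protein of zinc-starved cells, had 62.7 and 75.1 CPM in Aged cells against 108 and 351 CPM in Young cells (-1.74, SE 0.48, edgeR adjusted p = 0.0374). ZAP1, which encodes a zinc-responsive regulator, was not called, with 70.3 and 71.4 CPM in Aged cells against 127 and 125 CPM in Young cells (-0.83, SE 0.32, edgeR adjusted p = 0.118). All 4 zinc calls were kept without either Aged library and without the first Young library. For copper, CTR3, a high-affinity transporter, had 2 and 9 counts in Aged cells against 26 and 212 counts in Young cells, and was called lower (-3.42, SE 0.63, edgeR adjusted p = 0.00677). CRS5, a metallothionein, had 72.2 and 109 CPM in Aged cells against 9.08 and 19.4 CPM in Young cells (2.58, SE 0.46, edgeR adjusted p = 0.00589).

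Of 24 phosphate genes, 2 were lower, against 4.93% of all tested genes. GIT1, the glycerophosphoinositol transporter, had 49.4 and 48.6 CPM in Aged cells against 368 and 220 CPM in Young cells (log2 fold change -2.58, SE 0.36, edgeR adjusted p = 0.0024). PHM6 was called lower on very few counts, 0 and 1 in Aged cells against 9 and 26 in Young cells, so no fold is given.

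**Figure D2:**
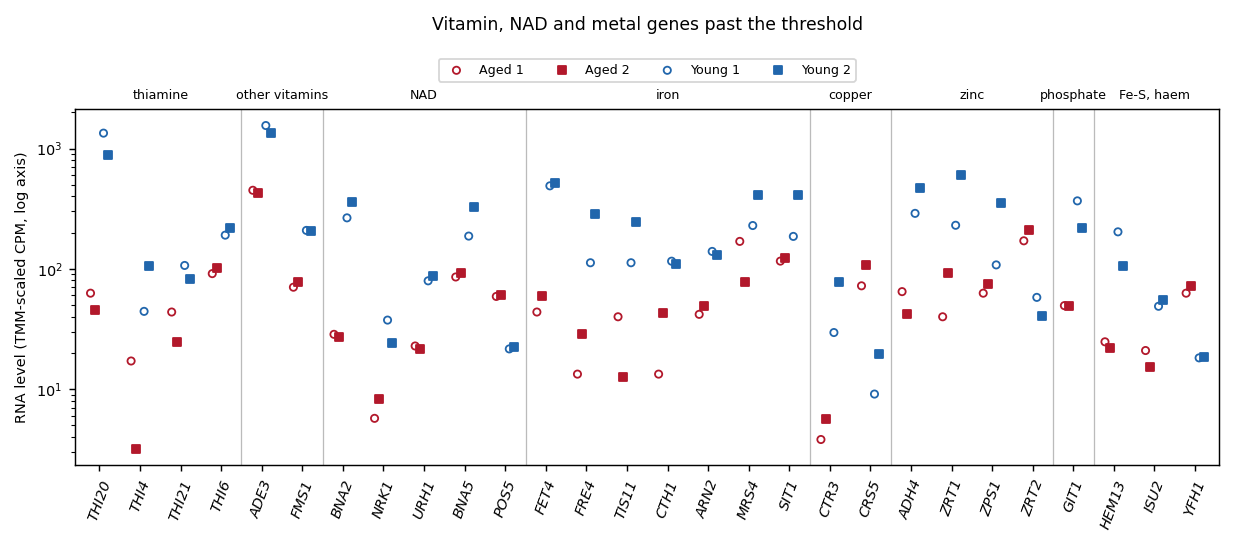
RNA level (TMM-scaled CPM, log axis) in each Aged library (red) and each Young library (blue) of the vitamin, NAD and metal genes called in either direction, PHM6 left out. Circles are replicate 1 and squares replicate 2. The Aged points lie under the Young points in all genes but POS5, CRS5, ZRT2 and YFH1.

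In the cell wall, 8 of 24 genes that add mannose to proteins were lower in Aged cells and 4 of 14 genes that part the daughter from the mother were higher. Of 123 tested genes, 17 were lower and 7 higher, with a median log2 fold change of -0.058. Protein mannosylation thus held 8 of the 17 (median -0.485), and daughter separation 4 of the 7 (median 0.833). Of the 24 calls, 15 were kept without the first Aged library, 16 without the second and 10 without the first Young library.

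O-mannosylation starts in the endoplasmic reticulum with the PMT family. PMT2 had 201 and 178 CPM in Aged cells against 701 and 725 CPM in Young cells (log2 fold change -1.91, SE 0.33, edgeR adjusted p = 0.00526). PMT1, its partner, had 346 and 373 CPM in Aged cells against 959 and 953 CPM in Young cells (-1.41, SE 0.34, edgeR adjusted p = 0.022). PMT3 (-1.46, SE 0.33, edgeR adjusted p = 0.0163) and PMT5 (-1.79, SE 0.38, edgeR adjusted p = 0.0125) were lower as well. PMT4, which acts as a pair with itself, had 124 and 131 CPM in Aged cells against 136 and 110 CPM in Young cells (0.06, SE 0.31, edgeR adjusted p = 0.93), so the family did not move as a whole. The sugar donor is GDP-mannose, and 2 enzymes of its synthesis were lower. PMI40, the phosphomannose isomerase, had 83.6 and 66.3 CPM in Aged cells against 315 and 222 CPM in Young cells (-1.85, SE 0.33, edgeR adjusted p = 0.00607). PSA1, which makes GDP-mannose itself, had 245 and 268 CPM in Aged cells against 890 and 695 CPM in Young cells (-1.62, SE 0.34, edgeR adjusted p = 0.0124). The Golgi mannosyltransferases MNN1 (-1.61, SE 0.35, edgeR adjusted p = 0.0135) and HOC1 (-1.38, SE 0.36, edgeR adjusted p = 0.0291) completed the 8.

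Glucan genes showed calls in both directions. KRE5, needed for beta-1,6-glucan, had 124 and 206 CPM in Aged cells against 381 and 428 CPM in Young cells (log2 fold change -1.28, SE 0.34, edgeR adjusted p = 0.0311). SKN1, also a beta-1,6-glucan gene, had 257 and 280 CPM in Aged cells against 93.0 and 103 CPM in Young cells (1.45, SE 0.30, edgeR adjusted p = 0.0109). These were the 2 calls among 12 glucan synthase genes. UTH1, of the SUN family of wall proteins, had 312 and 187 CPM in Aged cells against 96.4 and 45.5 CPM in Young cells (1.84, SE 0.42, edgeR adjusted p = 0.0158). UTH1 was the single call among 16 tested genes of glucan remodelling. For chitin, CHS1, the synthase that repairs the septum after division, had 365 and 366 CPM in Aged cells against 694 and 1046 CPM in Young cells (-1.25, SE 0.36, edgeR adjusted p = 0.0441). BUD7, which helps to sort the bud neck chitin synthase Chs3 to the surface, had 139 and 143 CPM in Aged cells against 294 and 309 CPM in Young cells (-1.10, SE 0.29, edgeR adjusted p = 0.0332). The chitin list of 14 tested genes held no other call, and both were lost without either Aged library.

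Among GPI-anchored mannoproteins, 3 of 17 were lower and 1 was higher. SPI1 had 93.1 and 120 CPM in Aged cells against 212 and 414 CPM in Young cells (log2 fold change -1.55, SE 0.37, edgeR adjusted p = 0.0203). CWP1 had 24.7 and 73.2 CPM in Aged cells against 110 and 244 CPM in Young cells (-1.78, SE 0.50, edgeR adjusted p = 0.0393). YPS3, a surface protease, had 74.1 and 49.3 CPM in Aged cells against 157 and 144 CPM in Young cells (-1.32, SE 0.35, edgeR adjusted p = 0.0302). The 3 were low in both Aged libraries. TIR1, a mannoprotein of cold or airless growth, went the other way with 70.3 and 66.3 CPM in Aged cells against 22.7 and 9.17 CPM in Young cells (2.21, SE 0.50, edgeR adjusted p = 0.0154). CCW12, an abundant wall protein, was not called, with 967 and 489 CPM in Aged cells against 790 and 403 CPM in Young cells (0.28). FLO11, the main flocculin of surface growth, had 41.8 and 11.998 CPM in Aged cells against 212 and 58.3 CPM in Young cells (-2.48, SE 0.68, edgeR adjusted p = 0.0362). AGA1, the anchor of a-agglutinin, had 20.9 and 11.998 CPM in Aged cells against 159 and 53.9 CPM in Young cells (-2.76, SE 0.58, edgeR adjusted p = 0.012). WSC4, of the family of wall stress sensors, was lower too (-1.81, SE 0.54, edgeR adjusted p = 0.0494). FLO11 and AGA1 were the 2 calls among 6 tested flocculins and agglutinins. WSC4 was the single call among 16 tested genes of wall integrity signalling, against 4.93% of all tested genes lower.

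The separation genes encode proteins that open the septum and other proteins made in newborn cells. CTS1, the chitinase that cuts the septum, had 431 and 442 CPM in Aged cells against 211 and 87.3 CPM in Young cells (log2 fold change 1.57, SE 0.41, edgeR adjusted p = 0.0283). DSE1, a protein made in daughters, had 266 and 272 CPM in Aged cells against 76.0 and 60.1 CPM in Young cells (1.99, SE 0.31, edgeR adjusted p = 0.0035). SUN4, a septum glucanase of the SUN family, had 129 and 100 CPM in Aged cells against 32.9 and 29.7 CPM in Young cells (1.87, SE 0.36, edgeR adjusted p = 0.0086). AMN1, which shuts off mitotic exit in the daughter, had 116 and 107 CPM in Aged cells against 36.3 and 19.1 CPM in Young cells (2.06, SE 0.41, edgeR adjusted p = 0.0101). All 4 calls were kept without either Aged library. CTS1, DSE1 and AMN1 are also the 3 called daughter-cell markers above. The study's methods give a lower bound on the purity of the aged cells, and that bound falls short of all cells. The share of newborn cells among the Aged cells was not tested.

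**Figure D3:**
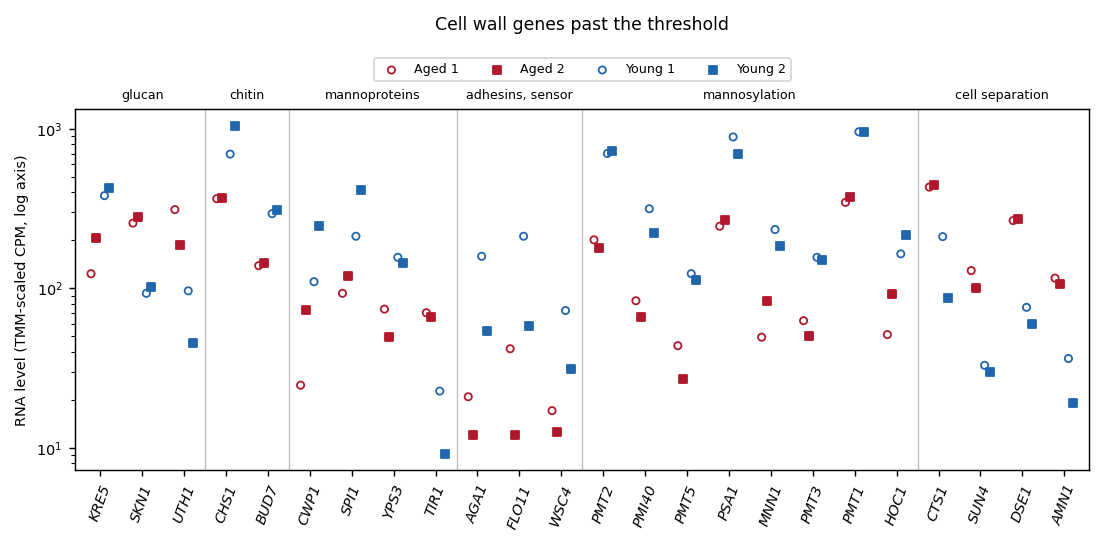
RNA level (TMM-scaled CPM, log axis) in each Aged library (red) and each Young library (blue) of the cell wall genes called in either direction. Circles are replicate 1 and squares replicate 2. All 8 mannosylation genes lie lower in Aged cells, and all 4 separation genes lie higher.

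Many genes of non-fermentable carbon use and respiration were higher in Aged cells. Gluconeogenesis and the glyoxylate cycle had 12 of 17 tested genes higher (median log2 fold change 2.347), the carnitine shuttle 5 of 5 (3.653), the TCA cycle 12 of 17 (1.686), complex III 9 of 9 (2.093), complex IV 8 of 10 (2.353) and the ATP synthase 15 of 16 (1.75), with 0 lower in each. YAT1, a carnitine acetyltransferase, had 916 and 451 CPM in Aged cells against 11.3 and 7.33 CPM in Young cells (6.26, SE 0.51, edgeR adjusted p = 0.000163). CRC1, the mitochondrial carrier of acetylcarnitine, had 255 and 266 CPM in Aged cells against 10.2 and 18.0 CPM in Young cells (4.11, SE 0.38, edgeR adjusted p = 0.00036). MLS1, the malate synthase, had 1456 and 1063 CPM in Aged cells against 49.9 and 85.4 CPM in Young cells (4.19, SE 0.44, edgeR adjusted p = 0.000625). SIP4, an activator of gluconeogenic genes, had 372 and 374 CPM in Aged cells against 44.3 and 16.9 CPM in Young cells (3.71, SE 0.44, edgeR adjusted p = 0.00111). In each of these genes the lower Aged library stood far above the higher Young library. Of respiratory genes, COX12 had 179 and 172 CPM in Aged cells against 9.08 and 20.2 CPM in Young cells (3.47, SE 0.42, edgeR adjusted p = 0.00112), and CYC7, the isoform of cytochrome c used when oxygen is low, had 2710 and 1853 CPM in Aged cells against 127 and 328 CPM in Young cells (3.31, SE 0.52, edgeR adjusted p = 0.00362). COX5A, the aerobic isoform of its subunit, had 713 and 667 CPM in Aged cells against 90.8 and 201 CPM in Young cells (2.22, SE 0.41, edgeR adjusted p = 0.00673). COX5B, the isoform used when oxygen is low, had 125 and 124 CPM in Aged cells against 125 and 174 CPM in Young cells and was not called. Without the first Young library 4 of the 15 ATP synthase calls were kept and 7 of the 9 of complex III.

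Peroxisomal fatty acid oxidation, which also feeds acetyl groups to mitochondria, had 2 of 17 genes higher and a median of -0.231. POT1, the thiolase, had a log2 fold change of 1.96 (SE 0.52, edgeR adjusted p = 0.0313). CTA1, the peroxisomal catalase, had one of 1.54 (SE 0.45, edgeR adjusted p = 0.0448).

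Glycolysis and fermentation had 5 of 22 genes lower and 0 higher, with a median of -1.071, and DESeq2 called 9 lower. TDH1, an isoform of glyceraldehyde-3-phosphate dehydrogenase, had 906 and 837 CPM in Aged cells against 5219 and 9482 CPM in Young cells (log2 fold change -3.08, SE 0.53, edgeR adjusted p = 0.00501). ENO2, the enolase of glucose growth, had 1306 and 681 CPM in Aged cells against 5956 and 3972 CPM in Young cells (-2.32, SE 0.51, edgeR adjusted p = 0.014). CDC19, the main pyruvate kinase, had 2043 and 1251 CPM in Aged cells against 6412 and 7255 CPM in Young cells (-2.06, SE 0.50, edgeR adjusted p = 0.0212). All 3 lay lower in both Aged libraries than in either Young library. Of the 5 calls, 3 were kept without the first Aged library, 1 without the second and 1 without the first Young library.

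Among hexose transporters, HXT5, a transporter of slow growth, had 817 and 947 CPM in Aged cells against 112 and 248 CPM in Young cells (log2 fold change 2.28, SE 0.42, edgeR adjusted p = 0.00687). The near-identical HXT6 and HXT7, whose reads may be split between them, were lower (-1.97, SE 0.51, edgeR adjusted p = 0.0289 and -1.96, SE 0.52, edgeR adjusted p = 0.0302). HXT10 was called lower on 1 and 0 counts in Aged cells, so its fold is not given. Of 10 glycerol genes tested, 1 was higher and 3 were lower. GUT2, which uses glycerol phosphate in mitochondria, had 965 and 581 CPM in Aged cells against 108 and 186 CPM in Young cells (2.38, SE 0.41, edgeR adjusted p = 0.00509). GPP1, which makes glycerol, had 89.3 and 170 CPM in Aged cells against 686 and 505 CPM in Young cells (-2.17, SE 0.39, edgeR adjusted p = 0.00599). STL1, a glycerol importer, had 39.9 and 39.8 CPM in Aged cells against 159 and 637 CPM in Young cells (-3.33, SE 0.57, edgeR adjusted p = 0.00498). GPD2, an enzyme of glycerol synthesis, was the other lower gene (-1.53, SE 0.32, edgeR adjusted p = 0.0114).

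**Figure D4:**
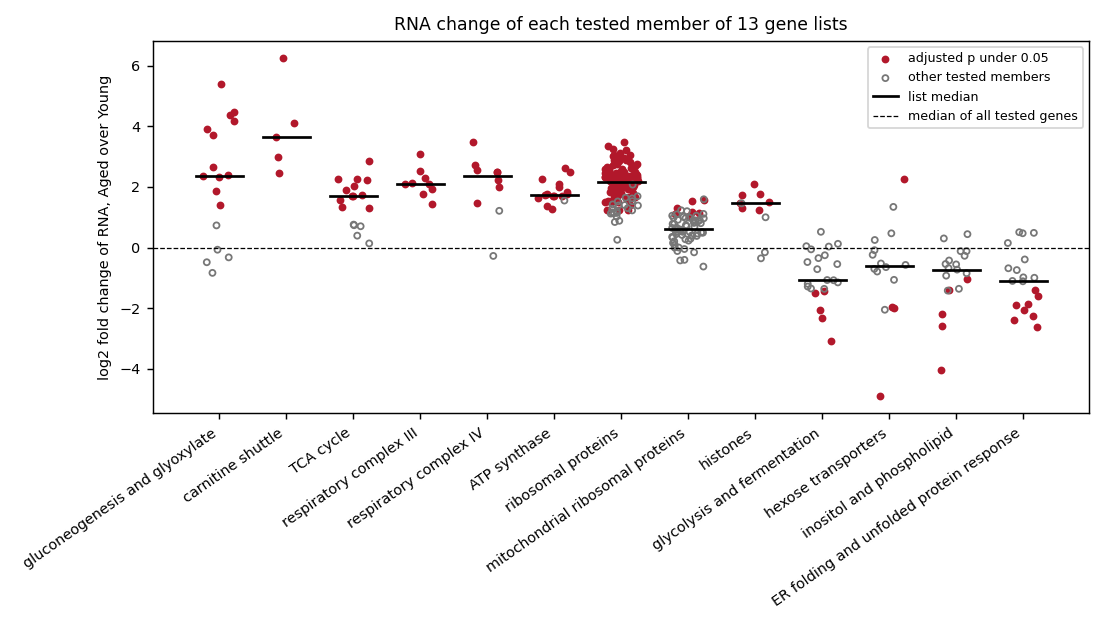
Log2 fold change of RNA (Aged over Young, y axis) of each tested member of 13 gene lists (x axis). Red points passed the threshold, open points did not, short bars are list medians and the dashed line is the median of all tested genes. The respiratory, ribosomal and histone lists have medians above the line, and the ER folding, inositol and glycolysis lists have medians below it. The lowest point, HXT10, rests on 1 and 0 counts in Aged cells.

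Of the lists read, that of cytosolic ribosomal proteins had the most genes higher. Of 137 tested, 115 were higher in Aged cells and 0 lower, the median log2 fold change was 2.178, and both Aged libraries lay above both Young libraries in 137. Of these genes, 38 have a copy at least 95% identical, so their reads may be split or shared between copies, and 81 of the other 99 were higher. RPL32, which has no such copy, had 331 and 308 CPM in Aged cells against 45.4 and 37.8 CPM in Young cells (2.95, SE 0.32, edgeR adjusted p = 0.000625). RPS13 had 274 and 261 CPM in Aged cells against 39.7 and 20.2 CPM in Young cells (3.22, SE 0.39, edgeR adjusted p = 0.00114). The other machinery of translation moved less. Ribosome biogenesis had 3 of 38 higher (median 0.789), mitochondrial ribosomal proteins 7 of 67 (0.616, and 4 by DESeq2), translation factors 2 of 28 (0.324) and RNA polymerase I 0 of 7 (0.464). The share higher over all tested genes was 8.02%. The Aged libraries were not alike in 2 of these lists. Ribosome biogenesis genes summed to 3019.5 and 6101.2 CPM in Aged cells against 3541.3 and 2830.8 CPM in Young cells. RNA polymerase I genes summed to 537.8 and 1126.5 CPM in Aged cells against 885.0 and 724.3 CPM in Young cells. NMD3, an export adaptor of the large subunit, had 160 and 188 CPM in Aged cells against 47.7 and 75.9 CPM in Young cells (1.47, SE 0.35, edgeR adjusted p = 0.0186).

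Histone genes were higher in 7 of 11, with a median of 1.458. HHT1 had 528 and 651 CPM in Aged cells against 170 and 180 CPM in Young cells (log2 fold change 1.75, SE 0.33, edgeR adjusted p = 0.00687), and HTB1 had 312 and 227 CPM in Aged cells against 87.4 and 40.3 CPM in Young cells (2.11, SE 0.40, edgeR adjusted p = 0.00774). The COS family, membrane proteins encoded near chromosome ends, had 6 of 10 higher (median 1.195). Of these 6, 4 have a copy at least 95% identical, so their reads may be split or shared between copies, and 2 have none. COS4, which is at least 95% identical to COS1, COS2 and COS3, had 129 and 137 CPM in Aged cells against 30.6 and 37.8 CPM in Young cells (1.94, SE 0.35, edgeR adjusted p = 0.00585). Of all higher genes with a known position, 4.43% lay within 30 kb of a chromosome end, against 8.24% of the lower genes and 5.06% of all tested genes.

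Of 28 genes of oxidative stress, 7 were higher and 1 was lower. HYR1, a thiol peroxidase, had 264 and 229 CPM in Aged cells against 69.2 and 62.7 CPM in Young cells (log2 fold change 1.90, SE 0.31, edgeR adjusted p = 0.00408). PRX1, a mitochondrial peroxiredoxin, was higher by 2.18 on the log2 scale (SE 0.37, edgeR adjusted p = 0.00498). OYE2, an NADPH oxidoreductase, was the lower one with 87.4 and 94.1 CPM in Aged cells against 854 and 718 CPM in Young cells (-3.11, SE 0.35, edgeR adjusted p = 0.00079). The 24 heat-shock genes had 0 higher and 2 lower, and DESeq2 called 6 lower. HSP26, a small heat-shock protein, had 49.4 and 82.1 CPM in Aged cells against 239 and 230 CPM in Young cells (-1.79, SE 0.34, edgeR adjusted p = 0.00768). Ergosterol genes had 5 of 26 higher. ERG8 had 315 and 365 CPM in Aged cells against 65.8 and 115 CPM in Young cells (1.89, SE 0.35, edgeR adjusted p = 0.00665), whereas UPC2, an activator of the same pathway, had 30.4 and 35.4 CPM in Aged cells against 178 and 180 CPM in Young cells (-2.42, SE 0.34, edgeR adjusted p = 0.0024). The proteasome had 1 of 33 higher (median 0.434).

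Inositol and phospholipid synthesis fell at its head. Of 19 tested genes, 5 were lower in Aged cells and 0 higher, with a median log2 fold change of -0.724. INO2 and INO4 encode the activators of the pathway, OPI1 its repressor and INO1 the synthase that makes inositol phosphate from glucose-6-phosphate. The Ino2-Ino4 dimer binds the core CATGTG, which on either strand was in 416 of 6007 windows (6.93%) and in 12 of the 19 genes. Of these 12, 4 were called, all lower. The sites below show 1 match in the synthase gene and 1 in each activator gene, with the core in capitals and 10 bases on either side. INO1 holds another match at 243 bases upstream.
INO1 site, chrX:136096-136121, plus strand, starting 178 bases upstream: ttctctgctcCATGTGaattaaataa
INO2 site, chrIV:699597-699622, minus strand, starting 144 bases upstream, with an overlapping match on the other strand: gtacaacacaCATGTGaatttttttc
INO4 site, chrXV:111992-112017, plus strand, starting 121 bases upstream: gtgagaaaaaCATGTGaatattttgt

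INO1 had 352 and 204 CPM in Aged cells against 4658 and 4359 CPM in Young cells (log2 fold change -4.03, SE 0.50, edgeR adjusted p = 0.0013). INO2 had 24.7 and 38.5 CPM in Aged cells against 222 and 176 CPM in Young cells (-2.59, SE 0.37, edgeR adjusted p = 0.0024). INO4 had 32.3 and 48.6 CPM in Aged cells against 213 and 170 CPM in Young cells (-2.19, SE 0.36, edgeR adjusted p = 0.00408). The synthase and both activators were thus lower together in each Aged library. OPI1 had 106 and 100 CPM in Aged cells against 261 and 278 CPM in Young cells (-1.39, SE 0.30, edgeR adjusted p = 0.0129), so the repressor was lower too. MCD4, which adds ethanolamine phosphate to the GPI anchors of wall proteins, had 51.3 and 71.4 CPM in Aged cells against 488 and 680 CPM in Young cells (-3.23, SE 0.37, edgeR adjusted p = 0.00079).

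Folding genes of the endoplasmic reticulum (ER) were lower in 8 of 19, with 0 higher and a median of -1.098. LHS1, an Hsp70 of the ER, had 116 and 116 CPM in Aged cells against 629 and 484 CPM in Young cells (log2 fold change -2.26, SE 0.33, edgeR adjusted p = 0.00293). JEM1, a J-protein partner of ER Hsp70, had 19.0 and 29.7 CPM in Aged cells against 191 and 124 CPM in Young cells (-2.61, SE 0.40, edgeR adjusted p = 0.00324). SIL1, a nucleotide exchange factor, had 51.3 and 60.0 CPM in Aged cells against 203 and 264 CPM in Young cells (-2.06, SE 0.33, edgeR adjusted p = 0.00388). Of the 8 calls, 7, 6 and 6 were kept without the first Aged, the second Aged and the first Young library.

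Amino acid genes were mostly not called, with 6 higher and 9 lower of 112, against 8.02% higher and 4.93% lower of all tested genes. HIS4, of histidine synthesis, had 158 and 126 CPM in Aged cells against 878 and 360 CPM in Young cells (log2 fold change -2.13, SE 0.44, edgeR adjusted p = 0.0111). ARG4, the last step to arginine, had 143 and 94.1 CPM in Aged cells against 443 and 201 CPM in Young cells (-1.46, SE 0.41, edgeR adjusted p = 0.0393). Within the same pathway CPA1, which makes carbamoyl phosphate, was higher, with 348 and 386 CPM in Aged cells against 110 and 119 CPM in Young cells (1.68, SE 0.30, edgeR adjusted p = 0.00589). Gcn4, the activator of amino acid synthesis, binds TGACTCA, which on either strand was in 164 of 6007 windows (2.73%). Of the 16 genes with it in the histidine, arginine, lysine and branched-chain lists, 3 were called lower and 1 higher. The sites of HIS4 and ARG4 are shown as 2 genes with the element that were lower, with the element in capitals.
HIS4 site, chrIII:68516-68542, minus strand, starting 199 bases upstream: ccatgcacagTGACTCAcgttttttta
ARG4 site, chrVIII:141565-141591, minus strand, starting 179 bases upstream: agtagatgaaTGACTCActttttggat

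The sulfate permeases SUL1 (-1.65, SE 0.40, edgeR adjusted p = 0.0214) and SUL2 (-2.05, SE 0.36, edgeR adjusted p = 0.00526) were lower. SUL2 had 30.4 and 30.3 CPM in Aged cells against 117 and 134 CPM in Young cells. Genes of DNA synthesis and of the DNA damage response had few calls, all lower. POL1, a subunit of the primase-associated polymerase, had 32.3 and 44.8 CPM in Aged cells against 191 and 106 CPM in Young cells (-1.89, SE 0.40, edgeR adjusted p = 0.0125). RNR1, the large subunit of ribonucleotide reductase, had 53.2 and 56.8 CPM in Aged cells against 247 and 143 CPM in Young cells (-1.81, SE 0.37, edgeR adjusted p = 0.0105). RAD53, a checkpoint kinase, had 15.2 and 13.9 CPM in Aged cells against 77.2 and 71.1 CPM in Young cells (-2.36, SE 0.42, edgeR adjusted p = 0.00605). The 3 messages were lower in both Aged libraries than in either Young library. The replication list as a whole had 3 of 20 lower and a median of -0.346. RNR1 was the single call among 9 tested ribonucleotide reductase genes (median -0.387). RAD53 was the single call among 17 tested genes of the DNA damage response (median -0.273). Of all tested genes 4.93% were lower.

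Middle cells carried beads as Aged cells did but had spent no time in the vessel, so Aged and Middle cells were compared with each other by the same test. Of 5674 genes, 270 (4.76%) were higher in Aged than in Middle cells and 170 (3.0%) were lower, with a median log2 fold change (Aged over Middle) of 0.007. Without the second Aged library 121 were higher and 23 lower, without the first Middle library 181 and 68, and without the second Middle library 97 and 74. For THI20 the levels were 1346 and 891 CPM in Young, 327 and 164 CPM in Middle, and 62.7 and 45.5 CPM in Aged cells, and Aged was lower than Middle (-2.18, edgeR adjusted p = 0.00947). BNA2 had 266 and 358 CPM in Young, 76.4 and 84.0 CPM in Middle, and 28.5 and 27.2 CPM in Aged cells (Aged over Middle -1.53, edgeR adjusted p = 0.0337). FET4 had 490 and 520 CPM in Young, 222 and 172 CPM in Middle, and 43.7 and 59.4 CPM in Aged cells (-1.88, edgeR adjusted p = 0.00643). These 3 stood in between in Middle cells, with no overlap of the ages. INO1 did too, with 4658 and 4359 CPM in Young, 2674 and 2827 CPM in Middle, and 352 and 204 CPM in Aged cells (-3.32, edgeR adjusted p = 0.00192). Inositol genes were lower in Aged than in Middle cells in 9 of the 19 (median -1.09).

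Other genes lay as high in Middle as in Young cells, or higher, and were lower in Aged than in Middle cells. TIS11 had 112 and 244 CPM in Young, 241 and 119 CPM in Middle, and 39.9 and 12.6 CPM in Aged cells (Aged over Middle -2.93, edgeR adjusted p = 0.0146). CHS1 had 694 and 1046 CPM in Young, 1189 and 1284 CPM in Middle, and 365 and 366 CPM in Aged cells (-1.75, edgeR adjusted p = 0.00606). SPI1 had 212 and 414 CPM in Young, 998 and 524 CPM in Middle, and 93.1 and 120 CPM in Aged cells (-2.81, edgeR adjusted p = 0.00256). Of the genes that were not called between Aged and Young cells, NMA1, an NAD-making adenylyltransferase, had 165 and 211 CPM in Young, 375 and 292 CPM in Middle, and 95.01 and 92.8 CPM in Aged cells (-1.82, edgeR adjusted p = 0.00338). PHO89, a phosphate transporter, had 166 and 354 CPM in Young, 776 and 1015 CPM in Middle, and 125 and 247 CPM in Aged cells (-2.24, edgeR adjusted p = 0.00677). Lysine synthesis had 0 of 9 called between Aged and Young cells but 5 lower in Aged than in Middle cells (median -1.554). LYS9 had 129 and 182 CPM in Young, 785 and 682 CPM in Middle, and 266 and 173 CPM in Aged cells (-1.75, edgeR adjusted p = 0.00834). For PHO89 and LYS9 the Aged and Young levels overlapped, so these genes stood highest in Middle cells and were not low in Aged cells against Young.

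A few wall and NAD genes were higher in Aged than in Middle cells and near their Young level. FKS1, a beta-1,3-glucan synthase, had 1055 and 843 CPM in Young, 353 and 342 CPM in Middle, and 728 and 899 CPM in Aged cells (Aged over Middle 1.23, edgeR adjusted p = 0.0263). GAS1, which lengthens beta-1,3-glucan, had 399 and 349 CPM in Young, 138 and 123 CPM in Middle, and 291 and 373 CPM in Aged cells (1.36, edgeR adjusted p = 0.0126). BNA4 had 120 and 146 CPM in Young, 52.5 and 41.7 CPM in Middle, and 124 and 125 CPM in Aged cells (1.43, edgeR adjusted p = 0.0263). Ribosomal proteins were higher in Aged than in Middle cells in 122 of 137 (median 2.713). RPL32 had 45.4 and 37.8 CPM in Young, 59.7 and 37.4 CPM in Middle, and 331 and 308 CPM in Aged cells (2.79, edgeR adjusted p = 0.00166). Complex III, complex IV and the ATP synthase had 0 genes called between Aged and Middle cells, with medians of 0.408, 0.283 and 0.645. Their unadjusted p was under 0.05 in 1, 3 and 9 genes, each higher in Aged cells, and DESeq2 called 0, 0 and 2. A missed threshold does not show that their levels were alike.

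**Figure D5:**
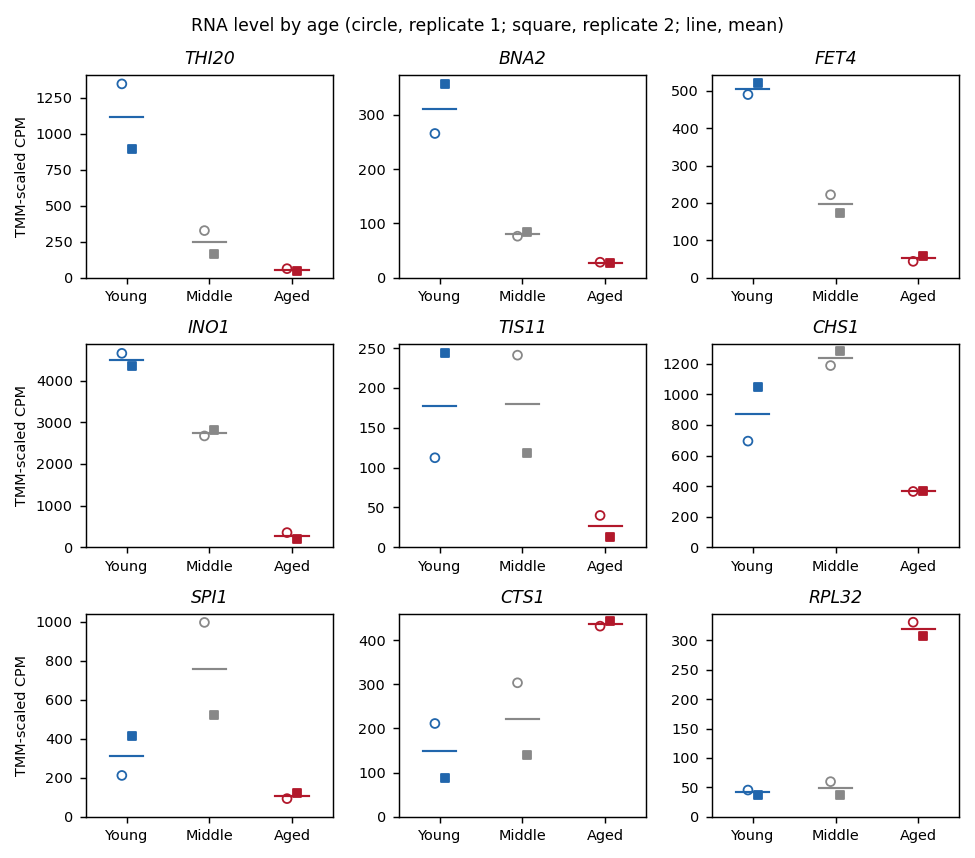
RNA level (TMM-scaled CPM, linear axis starting at 0) of 9 genes in Young (blue), Middle (grey) and Aged (red) cells. Circles are replicate 1, squares replicate 2 and lines the mean of 2 libraries. THI20, BNA2, FET4 and INO1 step down at each age, TIS11 is low in Aged cells, CHS1 and SPI1 are highest in Middle cells, and RPL32 is high in Aged cells alone among the 3 ages.

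Ribosome footprints were counted on the same coding sequences in 1 Aged library (965156 counts) and 2 Young libraries (417314 and 518833 counts), so these values have no test. THI20 had 60.4 footprint CPM in Aged cells against 2178 and 1289 in Young cells, BNA2 had 24.2 in Aged cells against 288.15 and 365 in Young cells, and INO1 had 413 in Aged cells against 9609 and 5343 in Young cells. All 3 lay lower in the Aged library than in either Young library, as their RNA did. The metal transporters FET4 (3.02 in Aged cells against 133 and 168 in Young cells), ARN2 (1.01 in Aged cells against 69.3 and 75.4 in Young cells) and ZRT1 (43.3 in Aged cells against 515 and 931 in Young cells) were low as well, and the FET4 and ARN2 values are at or under the 3.11 CPM that 3 counts give in that library. CTS1 had 384 in Aged cells against 83.1 and 56.6 in Young cells, SKN1 had 104 in Aged cells against 13.9 and 22.3 in Young cells, and POS5 had 52.4 in Aged cells against 16.6 and 15.4 in Young cells. CCW12, whose RNA was not called, had 1261 in Aged cells against 3580 and 1708 in Young cells. The genes in this paragraph were picked by name, so their footprints do not show how those of other genes stood.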

How the data were processed

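RNA-Seq (after rRNA depletion, with a stranded kit) and ribosome profiling libraries were deposited by the authors as one count per coding sequence and library. Per the labels and the study's methods, reads were base-called with CASAVA 1.8 and mapped with STAR 2.7.0a to sacCer3 (R64). By the same sources, the first and last few codons of each coding sequence, 10 in all, were left out. How strand and multi-mapping reads were handled in the counting is not given in the sources used here. The deposited counts were used as they stand.

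Groups came from the labels, with 2 RNA libraries per age. Genes kept by filterByExpr were fitted with edgeR 4.0.16 (limma 3.58.1, R 4.3.3; TMM, glmQLFit, glmQLFTest, two-sided, Benjamini-Hochberg, threshold 0.05), Aged with Young and Aged with Middle. Symbols were taken from the RefSeq R64 annotation, which held 5989 of the 6668 sequences. Near-identical copies were found with BLAST 2.17.0 (at least 95% identity over at least 50% of the length), and scripts ran in Python 3.11.15. The fit was tested on simulated data.

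Members and gene lists were chosen with earlier results of these data known. Named were any members of the vitamin, NAD, metal and cell wall lists, the 4 members of each other list with the smallest adjusted p in each direction, the 10 genes changed most in each direction with at least 3 counts in every library, and marker genes. Lists are described by counts and medians, with no set test. Alternatives were DESeq2 1.42.0 as test or for size factors, library totals, other count filters (none, or at least 10 counts), a joint fit of the ages, a replicate block and leaving out each library. The Middle footprint tables were not used.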

Additional observations from a re-analysis of the deposited data

How the results depend on the processing

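Between Aged and Young cells, the counts of 473 higher and 291 lower genes stayed within 1.5 times under DESeq2, DESeq2 size factors, library totals, other count filters and a joint fit of the 3 ages. Leaving out 1 library gave 0 to 409 higher and 0 to 226 lower genes, the 0 being without the second Young library. Adding a replicate block gave 661 genes higher and 466 lower, and between Aged and Middle cells 784 and 634. The deviations of same-numbered libraries correlated across genes at 0.0349 (Aged and Young), 0.318 (Aged and Middle) and 0.17 (Middle and Young). By the study's methods, Young, Middle and Aged cells are successive fractions of a labelled culture. Neither the methods nor the labels say that a number marks a shared culture. With 2 pairs, the numbers were not taken as a pairing, and a shared culture was not tested. With 1 library left out, the lone library of its group was assumed to vary like the other group. Between Aged and Middle cells, leaving out 1 library gave 97 to 323 higher and 23 to 215 lower genes. Of 104 genes named above and called between Aged and Young cells, 97 were called by DESeq2, 94 with library totals, 84 without the first Aged, 75 without the second Aged, 61 without the first Young and 0 without the second Young library, and 0 changed sign under any alternative. DESeq2 did not call THI6, NRK1, POS5, ISU2, PHM6, WSC4 and COS3, and library totals did not call THI6, SIT1, MRS4, ISU2, KRE5, CHS1, BUD7, CWP1, HOC1 and WSC4. Of genes named but not called, 10 changed sign when 1 library was left out. Their log2 fold changes then ranged from -0.24 to 0.048 for BNA4, -0.27 to 0.84 for CCW12, -1.12 to 0.30 for FET3, -0.53 to 0.55 for FTR1, -0.36 to 0.0045 for GAS1, -1.06 to 0.20 for PHO89, -0.10 to 0.20 for PMT4, -0.46 to 0.94 for SIR2, -0.053 to 1.09 for THI5 and -0.59 to 0.34 for URA3. The cause was not tested. The smaller Aged library, with a median of 29 counts per gene, limits what can be seen of low genes.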
